A study of Homo sapiens with 6 samples.

Results

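The 43 genes described here encode the contractile apparatus of skeletal muscle, the calcium handling that switches it on and the enzymes that fuel it. They were taken as a list of gene symbols, and all 43 had a row among the 60671 annotated genes of the series. By role, 13 belonged to the thick filament, 10 to the thin filament, 8 to the Z-disc and scaffold, 7 to calcium handling and 5 to energy supply. The rule lists them by name, and the list was made with earlier results of these data known.

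RNA was sequenced from 6 pieces of xenograft tumor, of which 3 were cut from the core (TC) and 3 from the margin (TM). The tumors were grown from WT cells of MDA-MB-231, a triple-negative line of human breast carcinoma, in the mammary fat pads of NSG mice, an immunodeficient strain whose lymphocytes are missing but whose muscle, fat, vessels and connective tissue are intact. All 6 pieces shared this cell line, strain and orthotopic injection with Matrigel. The hosts were females of 6 to 8 weeks, and 3 mice were used per group. Nothing stated whether a TC and a TM sample came from the same animal, so p-values below measure the spread between these samples.

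Skeletal muscle contracts when myosin heads of the thick filament pull on actin of the thin filament. Nerve impulses activate the voltage sensor CACNA1S, calcium leaves the sarcoplasmic reticulum through RYR1, and the troponin complex and tropomyosin then uncover actin, until the pump ATP2A1 returns the calcium to its store. Fast and slow fibres use different genes for many of these parts, and mammary carcinoma cells use non-muscle actins, myosins and pumps in their place. In the mouse, the mammary fat pad lies against skin muscle.

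Values were TPM, a measure of transcript abundance, which are corrected for transcript length and can therefore be compared between genes. TPM carries no sequencing depth, so the depth was unknown and precision was judged from replicates alone. TM replicate 3 differed from the other samples in its total of 994381 TPM, whereas theirs was 1000000, and in having only 4 of the 259 assembled loci outside the annotation above 0, against 203 to 214 elsewhere. TM replicate 3 is therefore given by itself beside each result that it moves. Markers of the carcinoma line were found in every sample, with KRT7 between 427 and 798 TPM, KRT8 between 356 and 447 TPM and VIM between 3797 and 5283 TPM, and CDH1, which this line is known to lack, reached at most 0.36 TPM.

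First, the summed level of the members was compared between samples. Without the troponin gene TNNT1, the other 42 members added up to 39.3, 44.5 and 38.3 TPM in TC replicates 1, 2 and 3, and to 395, 1014 and 66.9 TPM in TM replicates 1, 2 and 3. The high level was thus found in TM replicates 1 and 2, at 8.88 and 22.8 times the highest TC sample, and not in TM replicate 3. Leaving out TPM2 and ENO3 as well, the 3 TC samples held 13.5, 18.9 and 14.2 TPM and the TM samples 321, 827 and 10.9 TPM, so TM replicate 3 was then below every TC sample. Of the 43 members, 8 reached 1 TPM in each TC sample, 25 in TM replicate 1, 34 in TM replicate 2 and 6 in TM replicate 3.

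**Figure D1:**
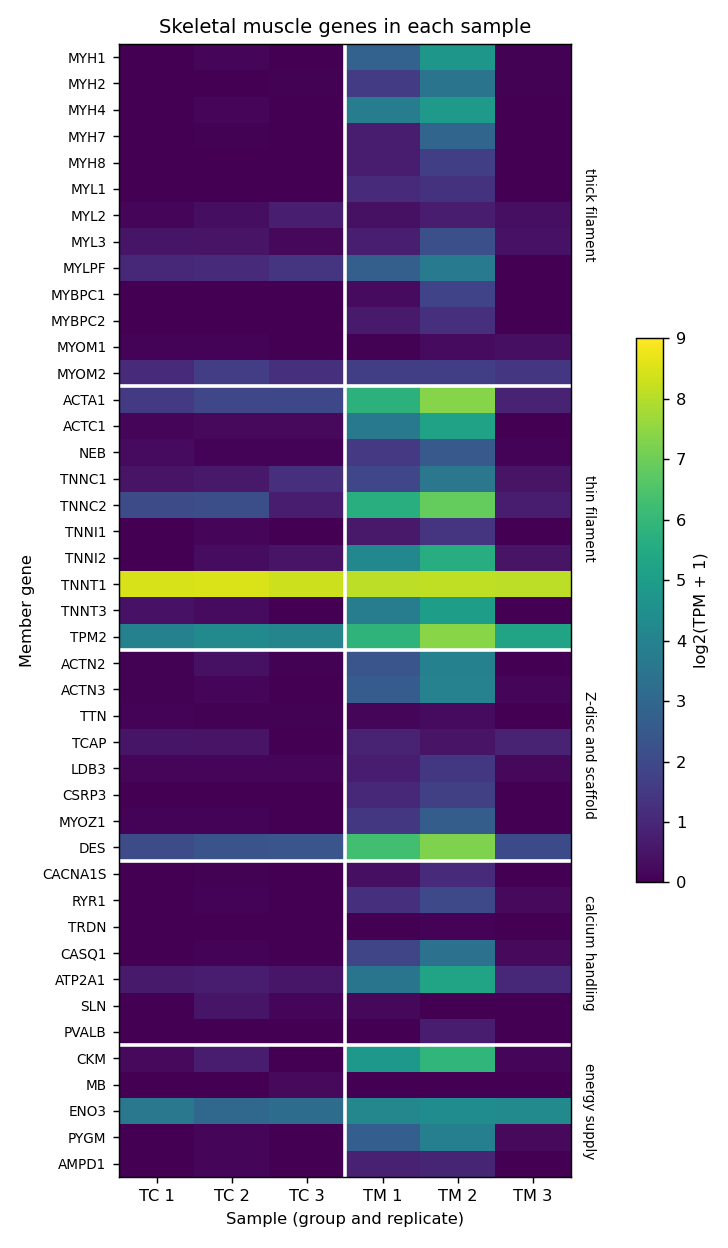
Heat map of log2(TPM + 1) for the 43 genes (rows, grouped by role) in the 3 TC and 3 TM samples (columns). Most rows are near 0 in TC and in TM 3 and brighter in TM 1 and, more so, TM 2. TNNT1 is bright in all 6 samples.

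The order of the samples was nearly the same from gene to gene. In 34 of 43 members TM replicate 2 was the highest sample and TM replicate 1 the next, and among the 34 members that reached 1 TPM anywhere this held for 32, against 9.19% of all 16303 genes that did so. Of the 43 members, 33 were under 1 TPM in each TC sample and in TM replicate 3. Those of them that reached 1 TPM did so only in TM replicate 1 or 2. The count of 32 was therefore largely fixed by the level asked for. Among the 10 members that passed the filter for testing it held for 8, against 9.08% of all genes tested. TM replicate 3 lay within or below the TC range in 33 members, above every TC sample in 10 and below every TC sample in 7. In bulk tissue, fewer muscle cells and less muscle RNA per cell cannot be told apart.

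In TM replicates 1 and 2 the adult fast myosins MYH1, MYH2 and MYH4 made up most of the thick filament sum, with 21.3 of 33.3 TPM and 63.6 of 96.9 TPM, whereas in the other 4 samples they summed to at most 0.24 TPM. MYH4, the heavy chain of the fastest fibres, was at 0, 0.11 and 0 TPM in TC and at 13.1, 27.7 and 0 TPM in TM. MYH1, the IIx heavy chain, was at 0, 0.11 and 0 TPM in TC and at 6.13, 26.0 and 0.04 TPM in TM. For both genes, TM replicates 1 and 2 stood above all other samples and TM replicate 3 overlapped with TC. MYLPF, the regulatory light chain of fast fibres, was at 1.02, 1.13 and 1.55 TPM in TC and at 5.68, 12.6 and 0 TPM in TM, so its TM samples lay on both sides of TC. The IIa heavy chain MYH2 reached 9.9 TPM, the slow heavy chain MYH7 6.65 TPM, the slow light chain MYL3 3.56 TPM, the myosin-binding protein MYBPC1 2.51 TPM and the perinatal heavy chain MYH8 2.18 TPM, each with its highest value in TM replicate 2. MYL1 reached 1.51 TPM and MYBPC2 1.31 TPM in the same sample, and both were at 0 in all TC samples. MYL2 stayed at or under 0.68 TPM and MYOM1 at or under 0.29 TPM in all 6 samples. The M-band gene MYOM2 was an exception, at 1.14 to 2.07 TPM in TC and 1.7 to 2.18 TPM in TM.

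Of the thin filament genes, ACTA1 had the highest level in TM replicate 2 after TPM2 and TNNT1. ACTA1, the actin of adult skeletal muscle, was at 1.86, 2.76 and 2.87 TPM in TC and at 53.7, 165 and 0.87 TPM in TM. ACTC1, the cardiac and fetal muscle actin, was at 0.1, 0.18 and 0.17 TPM in TC and at 11.6, 35.3 and 0 TPM in TM. In both actin genes TM replicate 3 was the lowest of all samples, and ACTA1 was 4.65 times ACTC1 in TM replicate 1 and 4.66 times in TM replicate 2. The large ruler protein of the thin filament, NEB, reached 4.76 TPM.

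The fast troponins showed the same order. TNNC2, the calcium-binding subunit, was at 3.15, 3.53 and 0.61 TPM in TC and at 50.5, 116 and 0.63 TPM in TM. TNNI2, the inhibitory subunit, was at 0, 0.23 and 0.38 TPM in TC and at 17.3, 47.5 and 0.4 TPM in TM. TNNT3, the tropomyosin-binding subunit, was at 0.37, 0.21 and 0 TPM in TC and at 12.8, 31.3 and 0 TPM in TM. All 3 subunits of the fast complex were thus above 30 TPM in TM replicate 2 and close to the TC level in TM replicate 3. TNNI2 and TNNT3 are neighbours on chromosome 11 (TNNI2 at 1838989 to 1841680 and TNNT3 at 1919562 to 1938706, both on the plus strand, GENCODE v29, GRCh38).

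Among the slow troponins, TNNC1 and TNNI1 were also highest in TM replicate 2 and next in TM replicate 1, and only TNNT1 departed from this order. TNNC1, shared by slow and cardiac fibres, was at 0.38, 0.55 and 1.36 TPM in TC and at 2.73, 10.8 and 0.39 TPM in TM, and TNNI1 reached 1.54 TPM. TNNT1, the third slow subunit, was at 346, 357 and 318 TPM in TC and at 277, 283 and 272 TPM in TM. Every TC sample of TNNT1 lay above every TM sample, which held for no other troponin. TNNT1 made up 88.9% to 89.8% of the members' summed TPM in TC, 41.2% in TM replicate 1, 21.8% in TM replicate 2 and 80.2% in TM replicate 3.

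TPM2, a beta-tropomyosin that fibroblasts and smooth muscle use as well as skeletal muscle, was at 14.5, 18.4 and 16.0 TPM in TC and at 57.0, 167 and 37.5 TPM in TM. It was higher in all 3 TM samples than in any TC sample, TM replicate 3 included.

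At the Z-disc, which anchors the thin filaments, and in the scaffold around it, 3 genes passed 10 TPM. DES, the muscle intermediate filament, was at 3.25, 3.97 and 4.12 TPM in TC and at 75.7, 153 and 3.03 TPM in TM. ACTN2 was at 0.03, 0.33 and 0.03 TPM in TC and at 4.12, 14.5 and 0.02 TPM in TM. ACTN3, the alpha-actinin of fast fibres, was at 0.04, 0.08 and 0 TPM in TC and at 5.16, 14.7 and 0.08 TPM in TM. In these 3 genes TM replicate 3 lay within or below the TC range, and the alpha-actinins had similar levels, with ACTN3 1.25 times ACTN2 in TM replicate 1 and 1.02 times in TM replicate 2. MYOZ1, which tethers calcineurin at the fast Z-disc, reached 5.26 TPM, CSRP3 2.23 TPM and LDB3 1.74 TPM, all in TM replicate 2. The giant spring protein TTN was at or under 0.19 TPM and its Z-disc cap TCAP at or under 0.81 TPM in every sample.

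Among the calcium genes, the pump was the most abundant. ATP2A1, the fast-fibre calcium pump, was at 0.56, 0.61 and 0.47 TPM in TC and at 10.3, 37.6 and 1.04 TPM in TM. All 3 TM samples lay above TC, although TM replicate 3 by far the least. CASQ1, which buffers calcium in the store, reached 9.22 TPM, the release channel RYR1 2.96 TPM and the voltage sensor CACNA1S 1.08 TPM, again in TM replicate 2. The ratio of ATP2A1 to RYR1 was 7.62 in TM replicate 1 and 12.7 in TM replicate 2. The other 3 genes were under 1 TPM in all 6 samples, namely PVALB, a calcium buffer of fast fibres (at most 0.66 TPM), SLN, an inhibitor of the pump (at most 0.44 TPM), and TRDN, an anchor of CASQ1 (at most 0.07 TPM).

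The energy genes varied in their order of samples. CKM, the muscle creatine kinase, was at 0.17, 0.65 and 0 TPM in TC and at 26.7, 59.95 and 0.12 TPM in TM. PYGM, the muscle glycogen phosphorylase, was at 0.02, 0.09 and 0.02 TPM in TC and at 5.44, 13.7 and 0.18 TPM in TM. ENO3, the muscle enolase, was at 11.3, 7.22 and 8.08 TPM in TC and at 16.9, 19.7 and 18.6 TPM in TM. Unlike CKM and PYGM, ENO3 was nearly level over the 3 TM samples and clearly above 0 in TC. AMPD1, the muscle AMP deaminase, reached 0.92 TPM. MB, the oxygen store of muscle, was at 0 in 5 samples and at 0.16 TPM in TC replicate 3.

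**Figure D2:**
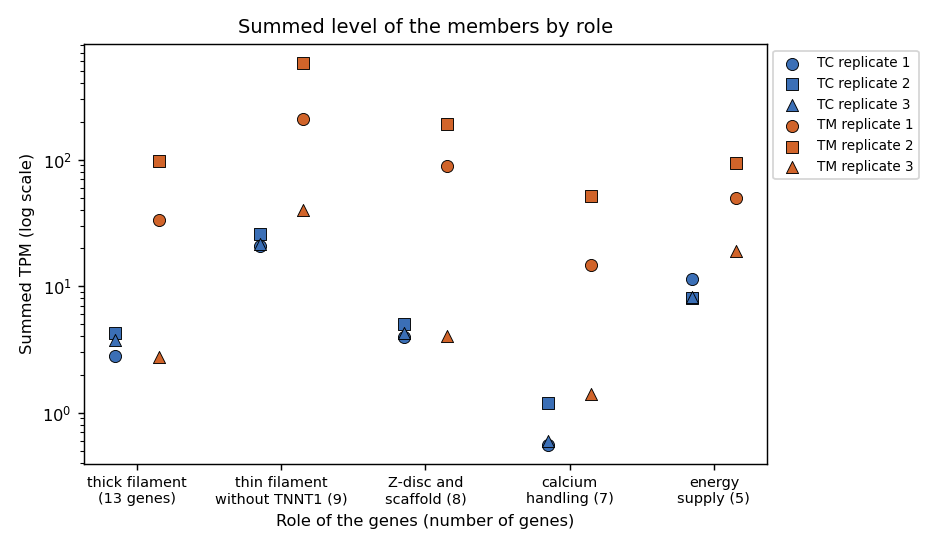
Summed TPM (log scale) of the members of each role in each sample, with TNNT1 left out of the thin filament. Circles, squares and triangles are replicates 1, 2 and 3, TC in blue and TM in orange. TM replicates 1 and 2 lie above all TC samples in each role, and TM replicate 3 lies near TC except in the thin filament (39.9 TPM) and energy supply (18.9 TPM).

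By role the thick filament summed to 2.78, 4.23 and 3.72 TPM in TC and to 33.3, 96.9 and 2.73 TPM in TM. The Z-disc and scaffold genes summed to 3.94, 4.98 and 4.3 TPM in TC and to 89.3, 192 and 4.07 TPM in TM, and the calcium genes to 0.56, 1.2 and 0.6 TPM in TC and to 14.8, 51.6 and 1.4 TPM in TM. TM replicate 3 lay just below TC for the thick filament, within the TC range for the Z-disc and scaffold and slightly above it for calcium handling. With TNNT1 left out, fast fibre members outweighed slow fibre members in TM replicate 1 by 25.8 times and in TM replicate 2 by 14.3 times. The 3 adult fast myosins MYH1, MYH2 and MYH4 together were 32.7 times the slow myosin MYH7 in TM replicate 1 and 9.56 times in TM replicate 2.

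Next, the composition of the muscle signal was compared between TM replicates 1 and 2. Over the 25 members at 1 TPM or more in both samples, the ratio of TM replicate 2 to TM replicate 1 had a median of 2.59 and ranged from 1.01 for MYOM2 to 4.83 for MYH2, with 19 of 25 between 2 and 4. Across all 43 members, which are genes and not independent replicates, Pearson correlation of log2(TPM + 1) was 0.963 between TM replicates 1 and 2, 0.967 between TC replicate 1 and TM replicate 3 and 0.533 between TM replicates 2 and 3, and TNNT1 is the highest point in each. ACTA1, DES, TPM2 and TNNC2 together made up 59.9% of the members without TNNT1 in TM replicate 1 and 59.3% in TM replicate 2. As a sum without TNNT1, slow fibre members took a larger part in TM replicate 2, as the ratios of fast to slow genes above show. This did not hold for MYL2. MYH7 went from 0.65 TPM in TM replicate 1 to 6.65 TPM in TM replicate 2 and MYL3 from 0.68 to 3.56 TPM. TNNI1 went from 0.52 to 1.54 TPM, and its part of the members without TNNT1 rose little, from 0.132% to 0.152%. MYL2 went from 0.32 to 0.65 TPM, and its part fell from 0.0810% to 0.0641%. MYBPC1, not counted as a slow fibre member, went from 0.19 to 2.51 TPM. All these genes were under the level set for the 25 ratios. MYH4 over MYH1 was 2.14 in TM replicate 1 and 1.07 in TM replicate 2, and TNNC2 over TNNC1 was 18.5 and 10.8. TNNI2 over TNNI1 changed less, with 33.3 in TM replicate 1 and 30.8 in TM replicate 2.

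**Figure D3:**
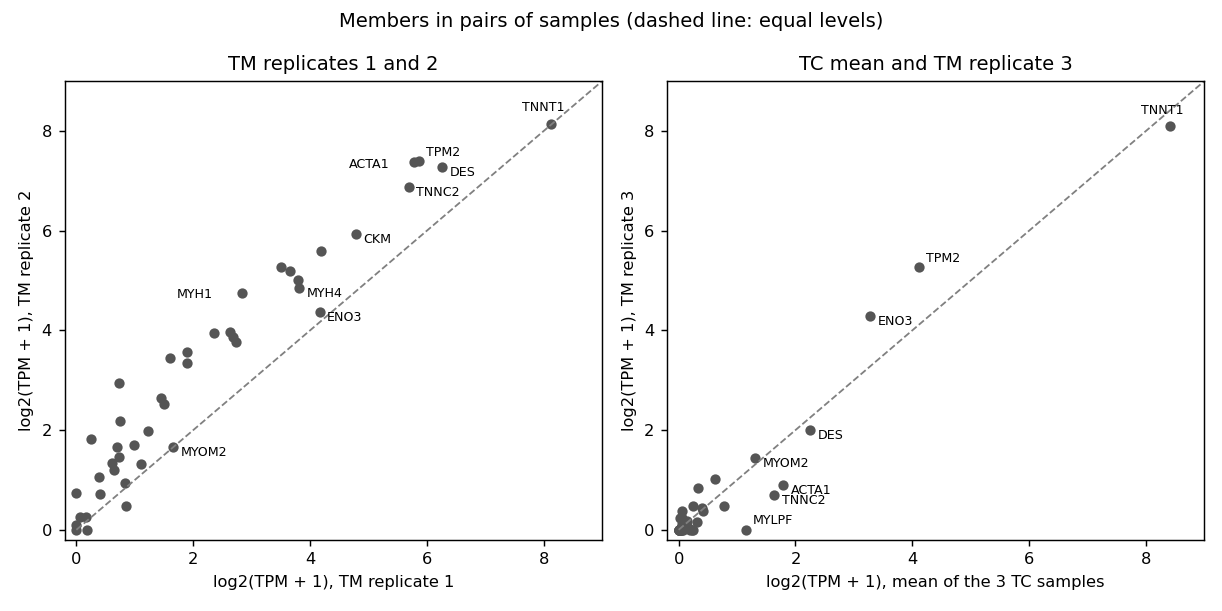
Each point is 1 of the 43 genes, in log2(TPM + 1). On the left, TM replicate 2 is plotted against TM replicate 1, and most genes lie above the line of equality by a similar step. On the right, TM replicate 3 is plotted against the mean of the 3 TC samples, where TPM2 and ENO3 lie above the line and ACTA1, TNNC2 and MYLPF below it.

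TC and TM were then compared by limma on log2(TPM + 1) for the 13861 genes that reached 1 TPM in 3 or more of the 6 samples, and a gene was called at a Benjamini-Hochberg adjusted p-value under 0.05. Of the 43 members 10 passed this filter and 0 were called, against 0.130% of the tested genes that were called lower in TC. Unadjusted p-values fell under 0.05 for 4 of the 10 with lower TC levels (TPM2, DES, ATP2A1 and ENO3), against 14.2% of tested genes, and for 1 with a higher TC level (TNNT1), against 1.93%. ATP2A1 passed the filter with every TC value under 1 TPM, so only its TM samples brought it in. The other 33 members could not be tested under this filter, and all 33 were under 1 TPM in each TC sample and in TM replicate 3.

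Among those tested, ENO3 had the smallest p-value, with a TC minus TM difference of -0.996 on the log2 scale (SE 0.21, limma adjusted p = 0.0843). TPM2 differed by -2.07 (SE 0.46, limma adjusted p = 0.0926) and ATP2A1 by -2.64 (SE 0.88, limma adjusted p = 0.197). In ENO3, TPM2 and ATP2A1 all TM samples lay above all TC samples, TM replicate 3 included. DES differed by -2.93 (SE 1.13, limma adjusted p = 0.257), ACTA1 by -2.89 (SE 1.37, limma adjusted p = 0.356) and TNNC2 by -2.78 (SE 1.37, limma adjusted p = 0.378). These differences were the largest of the 10 and also the least certain, since TM replicate 3 lay at the TC level. TNNT1 was 0.29 higher in TC (SE 0.11, limma adjusted p = 0.238). TNNC1, MYLPF and MYOM2 had adjusted p-values of 0.446, 0.608 and 0.647 in limma. The median SE of the 10 members was 0.744, compared with 0.234 for all tested genes.

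Over all 43 members the median difference was -1.02 on the log2 scale, compared with -0.14 over all tested genes, and 40 members had a lower mean in TC and 3 a higher one. Values of TC and TM did not overlap in 8 of 43 members that were lower in TC (TNNI2, TPM2, LDB3, RYR1, CASQ1, ATP2A1, ENO3 and PYGM), against 18.9% of tested genes, and in 1 member that was higher in TC, against 3.28%. A share of 8 in 43 is near the background, and among the tested members the count was 3 of 10. The median and the shares of the 43 include the 33 untested members, whereas the backgrounds are over tested genes, so these are unlike sets. Over the 10 tested members the median difference was -1.63. In LDB3, RYR1, CASQ1, PYGM and TNNI2 the non-overlap rested on TM replicate 3 values of at most 0.4 TPM.

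**Figure D4:**
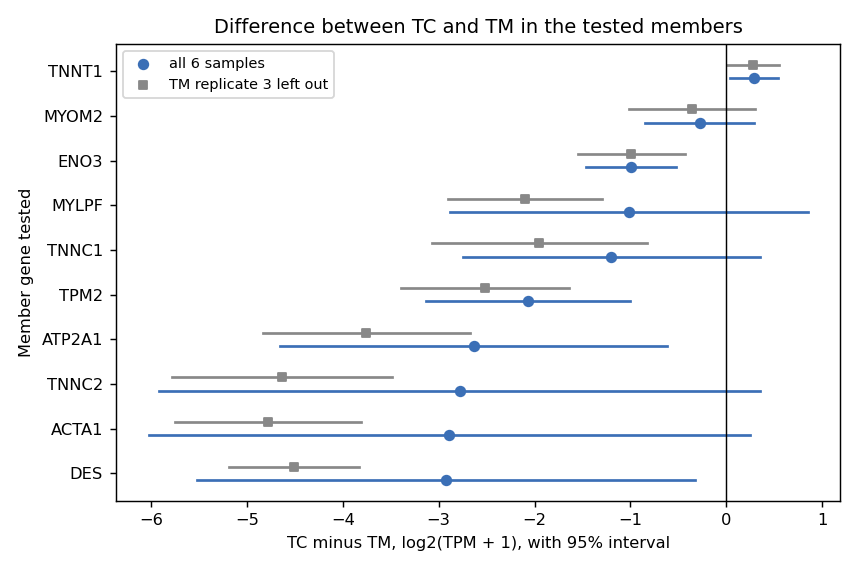
TC minus TM difference on the log2(TPM + 1) scale with its 95% interval from limma for the 10 tested genes, from all 6 samples (blue circles) and with TM replicate 3 left out (grey squares). Without that sample the intervals of DES, ACTA1, TNNC2 and ATP2A1 become narrower and lie farther from 0, and those of TNNT1 and ENO3 hardly move.

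The result of the comparison turned on TM replicate 3. With this sample left out, 4 of the 10 tested members were called, all lower in TC, against 0.108% of tested genes. DES then differed by -4.51 (SE 0.30, limma adjusted p = 0.00114), ACTA1 by -4.78 (SE 0.42, limma adjusted p = 0.00713), TNNC2 by -4.64 (SE 0.50, limma adjusted p = 0.0208) and ATP2A1 by -3.76 (SE 0.47, limma adjusted p = 0.0387). ATP2A1 had passed the filter only through its TM samples, so its call supports nothing. Unadjusted p-values were under 0.05 and lower in TC for 8 of the 10, against 16.8% of tested genes, and values did not overlap in 35 of 43 members, against 31.1%. The 43 included the 33 members that did not pass the filter, whereas the 31.1% was over tested genes, so these shares are of unlike sets. Leaving out any other sample gave 0 called members.

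With a filter that also kept genes at 1 TPM in only 2 samples, 25 members were tested. All 6 samples gave 0 calls, and without TM replicate 3 there were 11 called members, against 0.164% of 14668 genes. Unadjusted p-values were under 0.05 and lower in TC for 23 of 25, against 17.0%, but 16 of the 25 had every TC value under 1 TPM and entered only through their TM samples, so the filter largely fixed this count. The 11 were MYH4, ACTA1, ACTC1, TNNC2, TNNI2, TNNT3, ACTN3, DES, ATP2A1, CKM and PYGM. Of these, 8 were among the 16, so they had to differ in this fit, and the calls of these 8 support nothing.

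The muscle forms were next set beside the forms of the same proteins that are used outside skeletal muscle. CKM made up 0.316%, 1.07% and 0% of the TPM of CKM and the brain-type kinase CKB in TC and 34.2%, 51.7% and 0.235% in TM, while CKB itself stayed between 51.0 and 64.3 TPM in all 6 samples. ATP2A1 made up 0.698%, 0.732% and 0.517% of the 3 SERCA pumps in TC and 6.78%, 22.9% and 0.921% in TM. In both families the muscle form was a sizeable part of the total only in TM replicates 1 and 2. The 5 myosin heavy chains among the members were at most 0.0731% of a family with MYH9 and MYH10 in TC, and 4.82%, 12.8% and 0.0187% in TM. ACTN2 and ACTN3 were at most 0.102% of the alpha-actinins in TC, and 2.20%, 6.11% and 0.0270% in TM. Against the very abundant ACTB and ACTG1, ACTA1 and ACTC1 were at most 0.0410% of the 6 actins in TC and 0.643%, 1.99% and 0.0113% in TM.

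**Figure D5:**
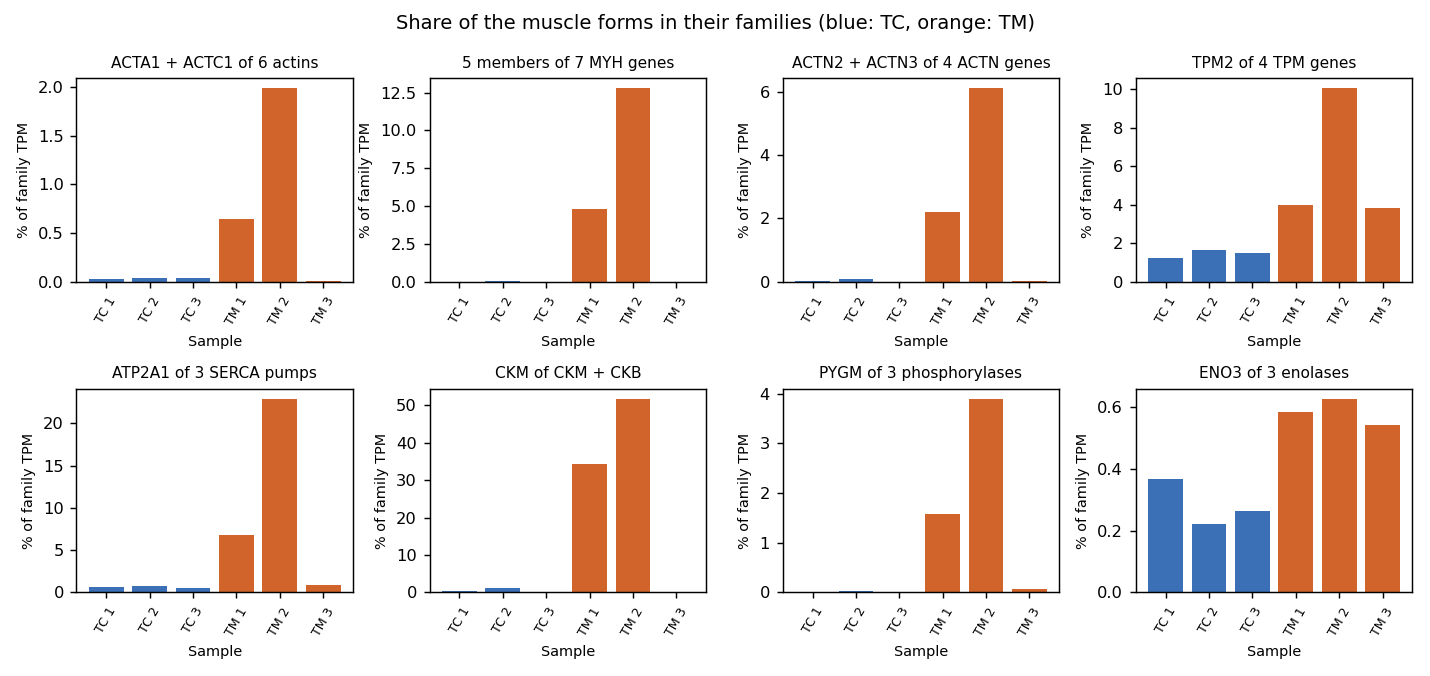
Share of the muscle forms in the summed TPM of their family, in percent, for each sample (TC in blue, TM in orange, each panel with its own axis from 0). The bars of TM 1 and TM 2 exceed all TC bars in each panel. TM 3 is near TC except for the tropomyosins and enolases.

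TPM2 was 1.23%, 1.65% and 1.49% of the tropomyosins in TC and 3.97%, 10.1% and 3.82% in TM, and ENO3 was 0.367%, 0.223% and 0.263% of the enolases in TC and 0.582%, 0.626% and 0.540% in TM. In these 2 families all TM samples were above all TC samples. Of the 33 counterpart genes 25 were tested, 0 were called and 2 had an unadjusted p-value under 0.05 in limma, both lower in TC, namely the widely expressed pump ATP2A2 (-0.59, SE 0.13, adjusted p = 0.0926) and AMPD2 (-0.48, SE 0.14, adjusted p = 0.148). Their median difference was -0.14 on the log2 scale, the same as over all tested genes.

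The sequences upstream of 4 members are shown because these actins and fast myosins were among the members highest in TM replicate 2 and lower elsewhere, and promoters of muscle actins and myosins are known for the elements marked here. They are RefSeq sequence of GRCh38.p14, 250 bases that end just before the transcription start, written 5′ to 3′ on the gene's own strand. Capitals mark matches on either strand to the CArG box (bound by serum response factor), the MEF2 site (bound by the MEF2 factors) and the TATA box (letters TATAAA). The window of ACTA1 is chr1:229434095-229434344, ACTC1 chr15:34795550-34795799, MYH1 chr17:10518543-10518792 and MYH4 chr17:10469560-10469809, all on the minus strand.
ACTA1: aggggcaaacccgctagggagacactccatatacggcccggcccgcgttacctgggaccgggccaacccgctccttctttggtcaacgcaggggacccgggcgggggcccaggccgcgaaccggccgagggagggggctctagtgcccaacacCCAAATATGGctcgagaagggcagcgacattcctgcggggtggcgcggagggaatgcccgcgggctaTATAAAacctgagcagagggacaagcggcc
ACTC1: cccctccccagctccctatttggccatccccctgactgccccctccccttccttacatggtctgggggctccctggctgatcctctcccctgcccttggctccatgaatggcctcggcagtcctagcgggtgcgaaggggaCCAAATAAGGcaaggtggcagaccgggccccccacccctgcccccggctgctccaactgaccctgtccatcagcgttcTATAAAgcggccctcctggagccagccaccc
MYH1: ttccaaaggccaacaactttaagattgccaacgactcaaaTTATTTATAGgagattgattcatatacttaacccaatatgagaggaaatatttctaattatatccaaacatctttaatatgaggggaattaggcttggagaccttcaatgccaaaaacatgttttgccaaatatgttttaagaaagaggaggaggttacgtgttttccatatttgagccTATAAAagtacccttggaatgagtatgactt
MYH4: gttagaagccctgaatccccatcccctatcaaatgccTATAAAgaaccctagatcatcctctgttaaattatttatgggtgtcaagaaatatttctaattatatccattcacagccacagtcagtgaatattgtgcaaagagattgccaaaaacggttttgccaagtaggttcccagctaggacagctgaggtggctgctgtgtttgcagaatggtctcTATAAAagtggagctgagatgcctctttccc

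In ACTA1 the CArG box lay at bases -97 to -88 from the start and the TATA box at -30 to -25. ACTC1 had them at -109 to -100 and -31 to -26. MYH1 had a MEF2 site at -210 to -201, which also holds a TATA match on the other strand, and a TATA box at -31 to -26, where MYH4 had one too. The table lists 3 windows for ACTC1, and the other 2 held neither a CArG box nor a TATA box. The actin windows shown thus had the same pair of elements, and the 2 myosin promoters the same TATA position.

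Windows of 300 bases, 50 of them after the start, were found for 28 members (40 windows) and searched on both strands beside all 35116 windows of the table. A CArG box was in 15% of the members' windows and 1.29% of all windows, a MEF2 site in 17.5% and 2.99%, a TATAAA in 25% and 11.5%, and an E-box, CANNTG, which MyoD-type factors bind, in 72.5% and 68.7%. The members with matches included genes at very low levels. PVALB had both a CArG box and a MEF2 site and was at most 0.66 TPM, and MYOM1 had a CArG box and was at most 0.29 TPM. CKM, at 59.95 TPM in TM replicate 2, had none of the 3 marked elements in its upstream 250 bases. A match is a description of the letters and not evidence of binding.

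MYH1, MYH2, MYH4 and MYH8 are neighbours on chromosome 17 and alike in sequence, so their reads can be divided among them. Of all 75-base words in MYH1 transcripts 11.7% also occurred in another gene, most often MYH2 (8.52%), and the share was 9.61% for MYH2, 7.70% for MYH7, 6.50% for MYH4 and 3.84% for MYH8. Levels of single heavy chains are therefore uncertain, but these exact matches between human transcripts do not measure by how much. Of the 43 members, 37 shared no such word with any other human gene. Mouse transcripts were not compared.

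Other muscle genes were followed in lists of their own. Of 35 other sarcomere genes 16 were tested, 0 were called and 8 had unadjusted p-values under 0.05, each with lower TC levels, against 14.2% of tested genes. CRYAB, a small heat shock protein of the Z-disc, was at 1.37, 0.49 and 1.88 TPM in TC and at 11.3, 13.7 and 1.17 TPM in TM. FHL1, a LIM protein of muscle, was at 3.04, 4.07 and 2.68 TPM in TC and at 9.12, 22.1 and 3.71 TPM in TM. These 2 genes followed the members, with high values in TM replicates 1 and 2. MYH3, the embryonic heavy chain, was at 0.91, 0.35 and 0.39 TPM in TC and at 2.33, 2.96 and 3.16 TPM in TM, and TMOD4, the pointed-end cap of skeletal thin filaments, was at 0.4, 0.24 and 0.53 TPM in TC and at 2.46, 8.62 and 2.08 TPM in TM. For MYH3 and TMOD4, unlike most members, TM replicate 3 also lay above TC. PDLIM3, CAPN3 and FLNC were also among the 8. MYH3, TMOD4 and CAPN3 passed the filter with every TC value under 1 TPM, so only their TM samples brought them in. Their direction was thus fixed by the filter, and their part in the count of 8 supports nothing. The median difference over the 35 genes was -0.24.

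Of 25 other genes of excitation and contraction 10 were tested and 1 had an unadjusted p-value under 0.05, against 14.2% of tested genes that were lower in TC, namely the calcium channel subunit CACNB1 at 5.97, 3.79 and 4.3 TPM in TC and 10.5, 17.3 and 10.6 TPM in TM (-1.26, SE 0.26, limma adjusted p = 0.0843). Of 19 other muscle energy genes 9 were tested and 2 had an unadjusted p-value under 0.05, both lower in TC and near the same background. CPT1B, the muscle carnitine palmitoyltransferase, was at 3.54, 2.71 and 1.96 TPM in TC and at 12.3, 8.12 and 12.3 TPM in TM (-1.67, SE 0.26, limma adjusted p = 0.0658), and PFKM differed by -0.65 (SE 0.16, limma adjusted p = 0.116). In CACNB1 and CPT1B TM replicate 3 stood with the other TM samples. COX6A2 and COX7A1, subunits of cytochrome oxidase in muscle, were listed at 0 in all 6 samples.

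Several factors that specify the muscle lineage were listed at 0. Of 16 myogenic regulators 7 were at 0 in every sample, namely MYOD1, MYOG, MYF5, PAX7, MYMK, MYMX and VGLL2. MYF6, the factor of mature fibres, was at 0 in all TC samples and at 0.69, 1.09 and 0.1 TPM in TM. MEF2D, which many tissues express, was the only member of that list with an unadjusted p-value under 0.05 (-0.54, SE 0.18, limma adjusted p = 0.199).

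Marker genes of other cells were examined beside the members. The 12 fibroblast markers summed to 66.9, 124 and 228 TPM in TC and to 482, 1022 and 91.1 TPM in TM, mostly as COL1A1 (44.7 to 161 TPM in TC and 335, 698 and 62.9 TPM in TM), 5 of the 12 were under 1 TPM in every sample, and COL3A1 alone had an unadjusted p-value under 0.05 (-2.13, SE 0.87, limma adjusted p = 0.281). The 11 smooth muscle markers summed to 221 to 222 TPM in TC and to 446, 513 and 239 TPM in TM, with ACTA2 at 42.6, 41.3 and 59.0 TPM in TC and 176, 218 and 66.5 TPM in TM (-1.52, SE 0.40, limma adjusted p = 0.126). SMTN was the other smooth muscle marker with an unadjusted p-value under 0.05, and MYOCD was listed at 0. Both sums were thus highest in TM replicates 1 and 2. TM replicate 2 was the highest and TM replicate 1 the next in 6 of the 12 fibroblast and 4 of the 11 smooth muscle markers. These counts keep the markers under 1 TPM in every sample, 5 fibroblast and 4 smooth muscle ones. COL1A1, COL1A2 and COL3A1 had the members' order, with TM replicate 3 within the TC range. COL3A1 was at 2.04, 5.09 and 10.7 TPM in TC and at 35.5, 79.8 and 5.16 TPM in TM. Like ACTA2, the smooth muscle marker TAGLN had the members' order, at 37.0, 40.7 and 49.1 TPM in TC and at 100, 133 and 36.6 TPM in TM. MYL9, less abundant on average than ACTA2, TAGLN and SMTN, was instead at 63.1, 69.7 and 47.9 TPM in TC and at 55.3, 50.6 and 44.96 TPM in TM. The part of these marker lists in the members' result was not tested.

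In the remaining marker lists fewer genes were highest in TM replicate 2 and next in TM replicate 1. These were 3 of 10 endothelial, 3 of 12 macrophage and 1 of 12 heart markers. The endothelial and macrophage shares were not far below the 4 of 11 smooth muscle markers. For adipocyte, erythroid, nerve and Schwann cell, and carcinoma cell markers the count was 0. The 12 heart markers summed to 14.6 to 18.0 TPM in TC and 14.9 to 19.1 TPM in TM, mostly as NKX2-5, with MYL7, NPPB, TBX5 and GATA4 at 0. Endothelial markers summed to 60.3 to 74.9 TPM in TC and 64.5 to 81.1 TPM in TM (EMCN at 0), and macrophage markers to 96.2 to 110 TPM in TC and 103 to 113 TPM in TM (C1QA, C1QB, C1QC and TYROBP at 0). Adipocyte markers summed to 18.4 to 32 TPM in TC and 20.6 to 33.9 TPM in TM, mostly as PPARG, with ADIPOQ, LEP, CIDEA, RETN and UCP1 at 0. Erythroid markers were between 0.29 and 7.14 TPM and nerve and Schwann cell markers between 76.3 and 106 TPM, and carcinoma cell markers between 5897 and 7757 TPM. In each of these 7 lists 0 genes had an unadjusted p-value under 0.05.

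Finally, the genes most like the members across the 6 samples were found by Pearson correlation of log2(TPM + 1) with the members' mean, among 730 tested genes with a range of at least 2 on that scale. The nearest 10 had r between 0.968 and 0.995, given as a description with no test. NDRG2, expressed in muscle and brain, came first, at 0.55, 1.04 and 0.6 TPM in TC and at 4.44, 13.4 and 0.67 TPM in TM. FHL1, PDLIM3, CYGB, SLIT3, RHOJ, LINC02887 and the pseudogenes ACTBP2 and HMGN2P5 were also among them.

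No step that separates mouse from human reads was described, and the values are given for human genes alone. Host and tumor RNA cannot be told apart in these values, and the source of the muscle transcripts was not tested.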

How the data were processed

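The study's methods state that TruSeq libraries were read as pairs, and that SeqPrep and Sickle were used for trimming, HISAT2 for alignment, StringTie for assembly and RSEM for quantification. The authors deposited a matrix of TPM for 6 samples on hg38, per the submitters' processing notes. The annotation release was not given in the sources used here. TPM keeps no depth, so the study's DESeq2 test could not be run and no counting interval was computed. The number of columns belonging to no sample was 0.

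The members and gene lists were chosen with earlier results of these data known. Symbols were matched to gene identifiers by a name table. MYLPF, now named MYL11, was matched through GENCODE v29, from which positions and transcripts were taken, and promoters came from RefSeq. Groups and replicate numbers were read from sample titles. Values were transformed as log2(TPM + 1), which understates differences of low genes, and all genes reaching 1 TPM in 3 or more samples were tested with limma 3.58.1 in R 4.3.3 (trend, two-sided, no covariate, Benjamini-Hochberg adjustment over 13861 genes). The script was tested on simulated data. Differences are TC minus TM.

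Values in every sample are printed for members at 10 TPM or more somewhere or at an unadjusted p-value under 0.05, and ranges for the rest. From other lists, the 3 most abundant genes and any at an unadjusted p-value under 0.05 could be named, with any counterpart, and other genes by correlation. Genes outside this rule that are named (CDH1, KRT8, MYL9, MYF6, LDB3, RYR1 and CASQ1 with the non-overlap, and markers at 0) were picked after their values were seen. Alternatives were another pseudocount, 2 other filters, 2 rescalings, leaving out mitochondrial genes, the replicate block, 2 forms of moderation and leaving out each sample. A looser filter, with and without TM replicate 3, was added after the data were seen. Deviations of same-numbered TC and TM samples from their group means correlated at 0.211, -0.121 and -0.165, so the numbers were not treated as pairs. Figures were drawn with matplotlib 3.10.9.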

Additional observations from a re-analysis of the deposited data

How the results depend on the processing

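The median difference of the 43 members was -1.02 with a pseudocount of 1 and -2.36 with 0.1, since most TC values are near 0. Members with lower TC levels and unadjusted p-values under 0.05 numbered 4 as reported (14.2% of all genes tested), 7 with no filter on low values (9.79%) and 7 with a mean of at least 5 TPM (15.4%), where more members were tested. The mean filter added MYH1, MYH4, ACTC1, TNNI2, TNNT3 and CKM, all under 1 TPM in every TC sample. These reached that mean only through TM replicates 1 and 2, so the rise in the count under that filter supports nothing. With the looser filter chosen after seeing the data, members with lower TC levels and such p-values numbered 15 of 25 (14.3%) and, with TM replicate 3 also left out, 23 of 25 (17.0%), with 0 and 11 of them called. Of these 25, 16 had every TC value under 1 TPM and entered only through their TM samples, so the filter largely fixed both counts.

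Leaving out each sample in turn gave 0 to 4 called members and 3 to 8 at an unadjusted p-value under 0.05 (9.73% to 16.8% of all genes tested). Without overlap were 8 to 35 of the 43 members, untested ones included (21.7% to 31.1% of genes tested). The upper ends all came from leaving out TM replicate 3, and its absence brought DES, ACTA1, TNNC2 and ATP2A1 past the threshold. The median difference was then -1.58, and -0.52 without TM replicate 2. The ratio of the TM to the TC mean of summed TPM over all 43 members was 2.02, and 1.33 to 2.58 with a sample left out. No tested member changed direction. TNNT1 lost its unadjusted p-value under 0.05 with quantile normalization, without mitochondrially encoded genes, with the block, without a trend and with TC replicate 1, TC replicate 2, TM replicate 1 or TM replicate 2 left out. With the replicate number as a block 0 members were called and 5 had an unadjusted p-value under 0.05 (12.1%), and the block changed no call.

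Over all tested genes the median difference was -0.14, and 0.05 after median-of-ratios rescaling and 0.02 after quantile normalization, while 4 members were lower in TC with unadjusted p-values under 0.05 in each, against 6.70% and 7.81% of all genes tested. The number of all genes called ran from 1 to 47 over the settings. With TPM alone and 3 samples a group, the spread between replicates sets what can be detected, and low genes could not be compared by count.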
